A study of Mus musculus with 15 samples.

Results

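The genes described are 10 genes tied to the self-renewal of nephron progenitors: Cited1, Eya1, Osr1, Sall1, Meox1, Pax2, Gdnf, Itga8, Crym and Fgf20. They were taken by name, with earlier results of these data known, and all 10 were found among the 46517 genes of the RNA count files. Shares of them that passed a test are therefore not those of a set chosen without the data. In the methylation files their positions were those within each gene and 2000 bases beyond both of its ends, and of the 360390 positions that each of the 9 samples covered with at least 10 calls, 287 lay there.

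All 15 samples are mouse samples of strain C57BL/6. Messenger RNA was sequenced at P0, the day of birth, from 3 Dnmt1 f/f controls, which carry floxed Dnmt1 and no Cre, and from 3 Six2Cre Dnmt1 f/f samples, called KO here. Methylation was measured by RRBS (reduced representation bisulfite sequencing), a method that samples CpG positions in CpG-rich restriction fragments, in 3 samples of each of those groups at P0 and 3 wild-type adults of 6 weeks. Cre is driven by Six2, so recombination is expected in nephron progenitors and in the cells that descend from them, and not in ureteric, stromal, endothelial or blood cells. The controls carry no Cre, so Cre itself and loss of Dnmt1 cannot be told apart. The labels give Six2-positive cells as the source, but their extraction protocol describes whole kidneys, and the RNA of every sample held podocyte, tubule, endothelial and leukocyte transcripts. It is not stated whether replicates are separate animals, so p-values measure the spread between these samples.

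Nephron progenitors are mesenchymal cells that cap the tips of the ureteric bud. They either renew themselves or commit to form the epithelium of the nephron, and in the mouse the pool is used up shortly after birth. Six2 marks the whole pool and Cited1 the least committed cells, while Eya1, Osr1, Sall1 and Pax2 are regulators needed for the pool to form or persist. Progenitors secrete Gdnf, which signals through Ret and Gfra1 on the bud, and the integrin subunit Itga8 binds nephronectin (Npnt) made by the bud. Dnmt1 is the methyltransferase that copies CpG methylation to the new strand after replication.

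Promoter sequences are given beside the methylation results. Sall1 start 2 and Pax2 starts 2 and 3 lay in CpG-rich DNA at which almost no methylation was measured. Pax2 start 1 holds only 7 CpG. Neither it nor Sall1 starts 1 and 3 held a position with at least 10 calls in all 9 samples. Cited1, which lies on chromosome X, carried methylation at P0 next to its start 3, which is of similar CpG content. Its starts 1 and 2 hold fewer, 18 and 14 CpG. No position inside its promoters had enough calls, so positions beside a start are set here against positions inside starts. The part of sequence or of chromosome X in this contrast was not tested. Sequences are from RefSeq, build GRCm38.p6, and run 5′ to 3′ on the gene's strand from 250 bases before to 50 bases after an annotated start. Capitals mark CpG dinucleotides, the letters whose methylation is read. Sall1 start 2 lies on the minus strand at chr8:89043463-89043762 and holds 27 CpG, of which 6 positions were measured. Pax2 start 2, on the plus strand at chr19:44755502-44755801, holds 23 CpG with 7 measured positions, and Pax2 start 3, at chr19:44756656-44756955, holds 30 CpG with 7 measured positions. Cited1 start 3, on the minus strand at chrX:102250727-102251026, holds 32 CpG, and the nearest positions with at least 10 calls lay just downstream of it.
Sall1 start 2: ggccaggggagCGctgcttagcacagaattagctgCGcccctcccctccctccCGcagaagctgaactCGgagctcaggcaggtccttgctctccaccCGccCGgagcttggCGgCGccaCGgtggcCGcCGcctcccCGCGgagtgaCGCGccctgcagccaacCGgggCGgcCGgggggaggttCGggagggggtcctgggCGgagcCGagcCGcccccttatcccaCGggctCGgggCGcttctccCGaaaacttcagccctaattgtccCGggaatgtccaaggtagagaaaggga
Pax2 start 2: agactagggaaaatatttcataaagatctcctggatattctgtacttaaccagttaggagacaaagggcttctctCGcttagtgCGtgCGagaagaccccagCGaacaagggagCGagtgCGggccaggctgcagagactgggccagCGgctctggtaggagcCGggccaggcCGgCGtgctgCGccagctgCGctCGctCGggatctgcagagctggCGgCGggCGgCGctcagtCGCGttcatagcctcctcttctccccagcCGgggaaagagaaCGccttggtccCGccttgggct
Pax2 start 3: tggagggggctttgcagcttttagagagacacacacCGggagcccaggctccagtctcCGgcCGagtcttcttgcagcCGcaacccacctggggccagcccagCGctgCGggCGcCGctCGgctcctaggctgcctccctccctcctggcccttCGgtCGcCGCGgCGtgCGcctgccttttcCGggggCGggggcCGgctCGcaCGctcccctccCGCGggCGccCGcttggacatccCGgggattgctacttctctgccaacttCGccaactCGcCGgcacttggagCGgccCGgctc
Cited1 start 3: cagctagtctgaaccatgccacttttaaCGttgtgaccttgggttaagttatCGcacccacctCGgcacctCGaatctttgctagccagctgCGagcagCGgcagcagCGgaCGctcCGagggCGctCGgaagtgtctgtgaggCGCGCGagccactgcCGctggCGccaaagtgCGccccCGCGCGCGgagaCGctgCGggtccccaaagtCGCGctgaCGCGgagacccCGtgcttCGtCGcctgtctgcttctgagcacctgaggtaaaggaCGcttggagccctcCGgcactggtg
Over all 32851 promoters of that length in the table the median was 7 CpG, and 52.8% held the letters CCGG, which are the same on both strands. Entries were matched for 5 of the 10 genes, with 12 promoters, and Eya1, Osr1, Meox1, Crym and Fgf20 are named only.

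Sequencing gave 26773937 to 34102567 gene counts per RNA sample and 18424875 to 88765177 methylation calls per RRBS sample, with the fewest calls in KO 3. Dnmt1 itself was 180, 156 and 188 CPM (gene counts scaled to a common library size) in controls 1 to 3 and 110, 111 and 93.8 in KO 1 to 3, so the targeted gene was lower in each KO sample but still present (log2 fold change -0.74, SE 0.12, edgeR adjusted p 0.00577). Control 3 stood apart from the other controls, with Six2 at 41.4 CPM against 98.0 and 107 and 8 proximal tubule genes summing to 4181 CPM against 1937 and 2126. A fit that weights samples by their scatter gave control 3 a weight of 0.165, against 0.991 to 2.61 for the others. Results that rest on this library are given with and without it.

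The first comparison asked how the RNA of the 10 genes differed between KO and control at P0. The set did not move together: Fgf20, Osr1 and Eya1 rose, Cited1 and Itga8 fell, and Sall1, Meox1, Pax2, Gdnf and Crym did not pass the test. Thus 3 of 10 were higher and 2 of 10 lower at an edgeR adjusted p under 0.05, where 6.36% of the 18132 genes tested were higher and 8.23% lower. Without control 3 the counts were 5 higher and 4 lower, where 2512 of the 18533 genes then tested were higher and 2561 lower. Without control 1 or any 1 KO sample, Fgf20 was the only one of the 10 still called higher. All 10 passed the filter on low counts. The median log2 fold change was 0.46 over the 10 genes and -0.000738 over all genes tested. CPM values are scaled by the TMM method of edgeR, error bars are SDs, and in bulk samples fewer cells of a type and less RNA per cell cannot be told apart.

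**Figure D1:**
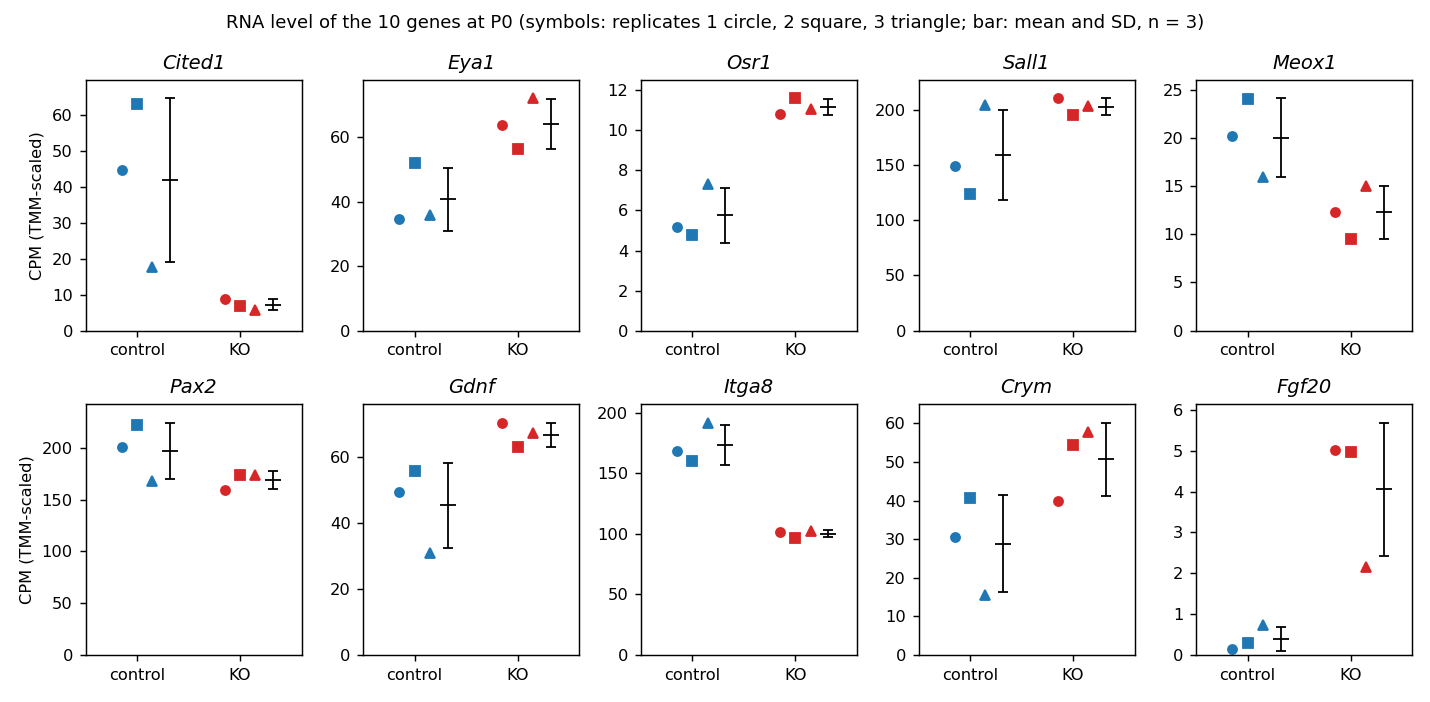
RNA level of each of the 10 genes in CPM (vertical axis, linear from 0, own scale per panel) in 3 controls (blue) and 3 KO samples (red), with the mean and SD beside the points. Cited1 and Itga8 lie lower in all 3 KO samples, Fgf20, Osr1 and Eya1 higher, and control 3 (blue triangle) is the lowest control for Cited1, Gdnf, Crym, Meox1 and Pax2.

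Among the regulators, Cited1, a transcriptional co-activator that marks uncommitted progenitors (ENSMUSG00000051159.15, chromosome X, 102247378 to 102252181), changed most. It was 44.8, 63.0 and 17.8 CPM in controls 1 to 3 and 8.85, 6.95 and 5.85 CPM in KO 1 to 3. Every KO sample lay below the lowest control, control 3, and the 3 KO values were close to each other while the controls spread widely. The mean fell 5.79-fold (log2 fold change -2.53, SE 0.42, edgeR adjusted p 0.00556), and 1.10% of the genes tested fell by more. Leaving out control 3 gave a log2 fold change of -2.89. Set against Six2 in the same sample, Cited1 was 45.7%, 58.9% and 42.9% of the Six2 level in controls and 10.5%, 7.41% and 5.59% in KO. On that scale control 3 no longer stood apart, since its Six2 and its Cited1 were low together.

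Six2 did not pass the test, at 98.0, 107 and 41.4 CPM in controls and 84.4, 93.8 and 105 CPM in KO (log2 fold change 0.20, 95% interval -0.51 to 0.91, edgeR adjusted p 0.741). The KO values lay within the range of the controls. The interval leaves room for a change in either direction.

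Eya1, a phosphatase and transcriptional co-activator (ENSMUSG00000025932.13, chromosome 1, 14168953 to 14311035), was 34.5, 52.0 and 35.7 CPM in controls and 63.8, 56.4 and 72.0 CPM in KO. The lowest KO sample lay just above control 2, the highest control. Its log2 fold change of 0.65 (SE 0.18) had an edgeR adjusted p of 0.0463, close to the threshold, and this p reached 0.140 without control 1 and 0.0755 to 0.164 when a KO sample was left out.

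Osr1, a zinc finger factor of the intermediate mesoderm and early progenitors (ENSMUSG00000048387.7, chromosome 12, 9574442 to 9581500), was 5.18, 4.76 and 7.34 CPM in controls and 10.8, 11.6 and 11.1 CPM in KO. The groups were well separated and the KO samples lay close together. Its mean was 1.94-fold higher (log2 fold change 0.95, SE 0.22, edgeR adjusted p 0.0214). The call was lost without control 1 (0.0875), without control 2 (0.0553) or without any KO sample (0.0752 to 0.0947).

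For Sall1, a zinc finger factor of the cap mesenchyme (ENSMUSG00000031665.6, chromosome 8, 89027242 to 89044162), controls were at 149, 124 and 205 CPM and KO samples at 211, 196 and 203 CPM. Control 3 reached the level of the KO samples, so the groups overlapped (log2 fold change 0.35, 95% interval -0.06 to 0.76, edgeR adjusted p 0.251). Without control 3 the log2 fold change was 0.57 with an edgeR adjusted p of 0.00568. The lncRNA gene Gm3134 overlaps Sall1, and reads from overlapping genes may not be told apart.

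Meox1, a homeobox factor of the mesenchyme (ENSMUSG00000001493.9, chromosome 11, 101877510 to 101894354), was 20.2, 24.0 and 15.9 CPM in controls and 12.3, 9.47 and 15.05 CPM in KO. Each KO sample lay below each control, by a narrow margin between control 3 and KO 3. Its log2 fold change of -0.71 (SE 0.22) had an edgeR adjusted p of 0.0736, and of 0.0122 without control 3.

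Pax2, a paired-box factor of both progenitors and ureteric bud (ENSMUSG00000004231.14, chromosome 19, 44746601 to 44838269), was 201, 222 and 168 CPM in controls and 159, 174 and 174 CPM in KO. Control 3 lay among the KO samples. The log2 fold change of -0.22 (95% interval -0.52 to 0.08) did not pass the test, with an edgeR adjusted p of 0.334, and without control 3 it was -0.32 with 0.0324. An lncRNA gene, 1700039E22Rik, and the miRNA gene Mir6405 overlap Pax2.

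Of the secreted ligands, Fgf20, which with Fgf9 keeps progenitors alive and undifferentiated (ENSMUSG00000031603.13, chromosome 8, 40279166 to 40286953), was near the detection limit in controls, at 0.152, 0.291 and 0.734 CPM. In KO it was 5.02, 4.98 and 2.17 CPM. Counts behind these levels were 5, 9 and 27 in controls and 161, 152 and 57 in KO. KO 3 was the lowest KO sample and still lay above control 3, the highest control. The mean was 10.1-fold higher in KO (log2 fold change 3.34, SE 0.58, edgeR adjusted p 0.00673), and 1.87% of the genes tested rose by more. Leaving out single samples moved the log2 fold change between 2.95 and 4.18.

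Gdnf, the ligand that drives branching of the bud (ENSMUSG00000022144.3, chromosome 15, 7810048 to 7837580), was 49.3, 55.7 and 30.9 CPM in controls and 70.1, 62.9 and 67.1 CPM in KO. Every KO sample lay above every control. Its log2 fold change of 0.56 (95% interval 0.10 to 1.02) had an edgeR adjusted p of 0.109, and without control 3 the value was 0.35 with 0.0354.

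Itga8, the integrin alpha subunit by which progenitors bind nephronectin (ENSMUSG00000026768.9, chromosome 2, 12106632 to 12301985), was 168, 160 and 192 CPM in controls and 101, 96.5 and 102 CPM in KO. Replicates were tight in both groups and far apart between them. The mean fell 1.73-fold (log2 fold change -0.79, SE 0.11, edgeR adjusted p 0.00268), the smallest adjusted p among the 10 genes. The lncRNA gene E030013I19Rik overlaps Itga8.

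Crym, a thyroid hormone-binding protein (ENSMUSG00000030905.5, chromosome 7, 120186380 to 120201989), was 30.5, 40.6 and 15.6 CPM in controls and 39.9, 54.5 and 57.7 CPM in KO. KO 1 lay below control 2, so the groups overlapped by a small margin. The log2 fold change of 0.81 (95% interval 0.09 to 1.54) had an edgeR adjusted p of 0.133, and without control 3 it was 0.51 with 0.0620.

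**Figure D2:**
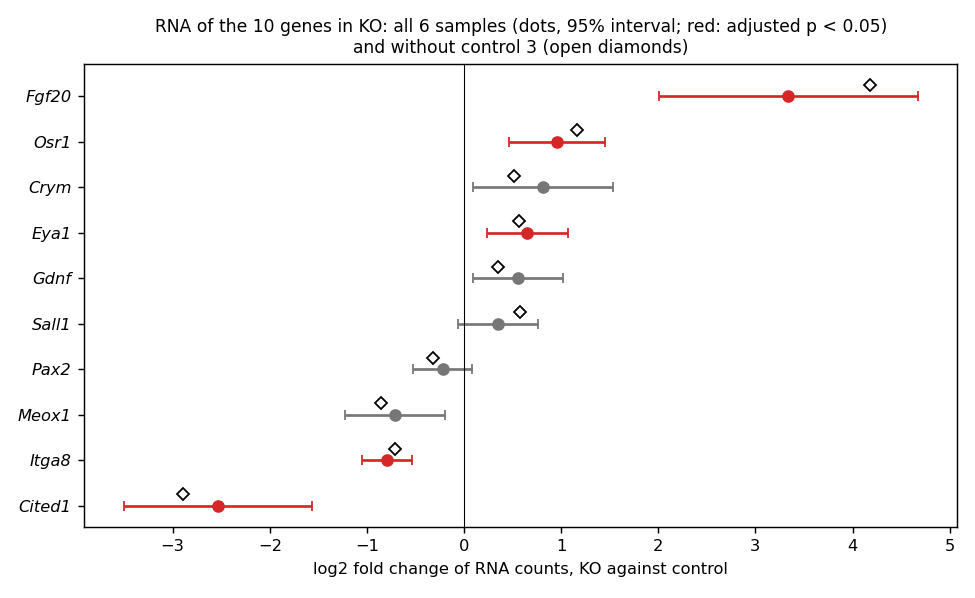
Log2 fold change of RNA counts in KO against control (horizontal axis) for the 10 genes, from all 6 samples (dots with 95% intervals, red where the edgeR adjusted p was under 0.05) and without control 3 (open diamonds). Fgf20 at 3.34 and Cited1 at -2.53 lie far from the other genes, and no gene changes sides of 0 when control 3 is left out.

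Every KO sample lay above every control for 4 of the 10 genes and below for 3, where 16.5% and 17.8% of all genes tested did so. Expressed as a percent of Six2 in the same sample, Cited1, Meox1, Pax2 and Itga8 were lower in all 3 KO samples and Fgf20 and Crym higher. Eya1, Osr1, Sall1 and Gdnf overlapped on that scale. Itga8, for example, was 171%, 150% and 463% of Six2 in controls and 120%, 103% and 97.8% in KO.

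The other genes of these pathways came from 5 lists with 50 genes, all of which were tested. These lists too were chosen with earlier results of these data known. Of these, 6 were higher in KO (12%) and 4 lower (8%), against 6.36% and 8.23% of all genes. Without control 3 it was 9 higher and 9 lower, where 2512 and 2561 of all 18533 genes tested were called higher and lower. Among 12 progenitor factors Hoxc11 rose (7.27 ± 0.797 CPM in controls, 13.0 ± 0.353 in KO, edgeR adjusted p 0.01405) and Wt1, which podocytes also express, fell (185 ± 24.3 to 122.6 ± 17.2 CPM, edgeR adjusted p 0.0324).

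In the Gdnf and Ret list 3 of 12 genes passed, all higher in KO, where 6.36% of all genes tested were higher and 8.23% lower. Without control 3 this list had 3 genes higher and 3 lower, where 2512 and 2561 of all 18533 genes tested were. Ret, the receptor on the bud, was 63.3, 88.8 and 42.7 CPM in controls and 127, 124 and 119 CPM in KO (log2 fold change 0.92, edgeR adjusted p 0.0329). Sox9, a factor of the bud tip, rose from 15.7 ± 1.48 to 30.7 ± 8.72 CPM (edgeR adjusted p 0.0194), and Slit2, which restricts where Gdnf is made, from 110 ± 2.64 to 149 ± 10.4 CPM (edgeR adjusted p 0.0257). The co-receptor Gfra1 overlapped between groups, at 77.3 to 228 CPM in controls and 205 to 221 CPM in KO.

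Of 12 FGF and BMP genes, Fgf10 rose from 8.305 ± 2.265 to 18.2 ± 1.90 CPM (edgeR adjusted p 0.0120) and the FGF feedback inhibitor Spry4 fell from 26.8 ± 2.49 to 17.2 ± 2.79 CPM (edgeR adjusted p 0.0352). Fgf9, the partner of Fgf20, did not pass the test, with 8.64 ± 1.95 CPM in controls against 5.31 ± 1.10 CPM in KO (edgeR adjusted p 0.110). Among 6 genes of the integrin and matrix list, Npnt, the ligand of Itga8, fell as Itga8 did, from 872, 871 and 916 CPM to 562, 609 and 549 CPM (log2 fold change -0.63, SE 0.14, edgeR adjusted p 0.0198). Itgb1, the beta subunit that pairs with Itga8, was 743 ± 122.7 and 734 ± 42.3 CPM. Of 8 genes of nephron commitment, Lhx1, a factor of the renal vesicle, fell from 71.8 ± 18.9 to 42.9 ± 3.06 CPM (edgeR adjusted p 0.0309), while Wnt4 was 169 ± 24.4 and 179 ± 19.3 CPM.

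Markers of other cells differed between the groups beside these results. The marker lists too were chosen with earlier results of these data known. Over all genes tested, 6.36% were called higher in KO and 8.23% lower. All 8 proximal tubule genes were lower in KO, with a summed level of 1937 to 4181 CPM in controls and 395 to 466 CPM in KO. The same held for all 6 genes of thick limb and distal tubule (1179 to 1623 and 129 to 173 CPM) and all 6 podocyte genes (620 to 971 and 182 to 233 CPM), and 4 of 6 endothelial genes were lower (611 to 874 and 397 to 494 CPM). Called higher were 4 of 8 stromal genes, Calb1 among 6 ureteric genes and Ptprc among 5 leukocyte genes. Summed over each of these lists, the groups overlapped. The stromal sums were 1881 to 2395 CPM in controls and 2036 to 2333 CPM in KO. The ureteric sums were 695 to 1195 and 895 to 1388 CPM, and the leukocyte sums 52.0 to 77.2 and 53.6 to 73.1 CPM. All KO samples lay above all controls for 4 stromal genes and below for 2, where 16.5% and 17.8% of all genes tested did so. The leukocyte gene Cd3e, with 0 to 3 counts per sample, was not tested. CPM values are shares of a library, and the part of these shifts in the changes of the 10 genes was not tested. Xist ranged from 1018 to 2786 CPM over the 6 RNA samples, and the Y-linked Ddx3y was 0.951 CPM in control 3 and at most 0.0328 CPM elsewhere.

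The second comparison asked how CpG methylation at the 10 genes differed between KO and control at P0. Over the 287 positions, the 3 controls averaged 18.6%, 19.2% and 19.0% methylation and the 3 KO samples 15.1%, 13.4% and 13.7%. All KO samples were lower, by 4.86 points on average (two-sided exact permutation p 0.1, the smallest that 3 samples against 3 allow). Most of the positions, 187, were under 10% in controls, with means of 1.92% in controls and 1.89% in KO. At the 48 positions of 50% or more, methylation was 77.2%, 76.0% and 79.8% in controls and 56.7%, 52.5% and 51.7% in KO. That is a shift of -24.0 points (exact permutation p 0.1). Over all 199551 measured positions of that level the mean difference was -23.3 points.

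**Figure D3:**
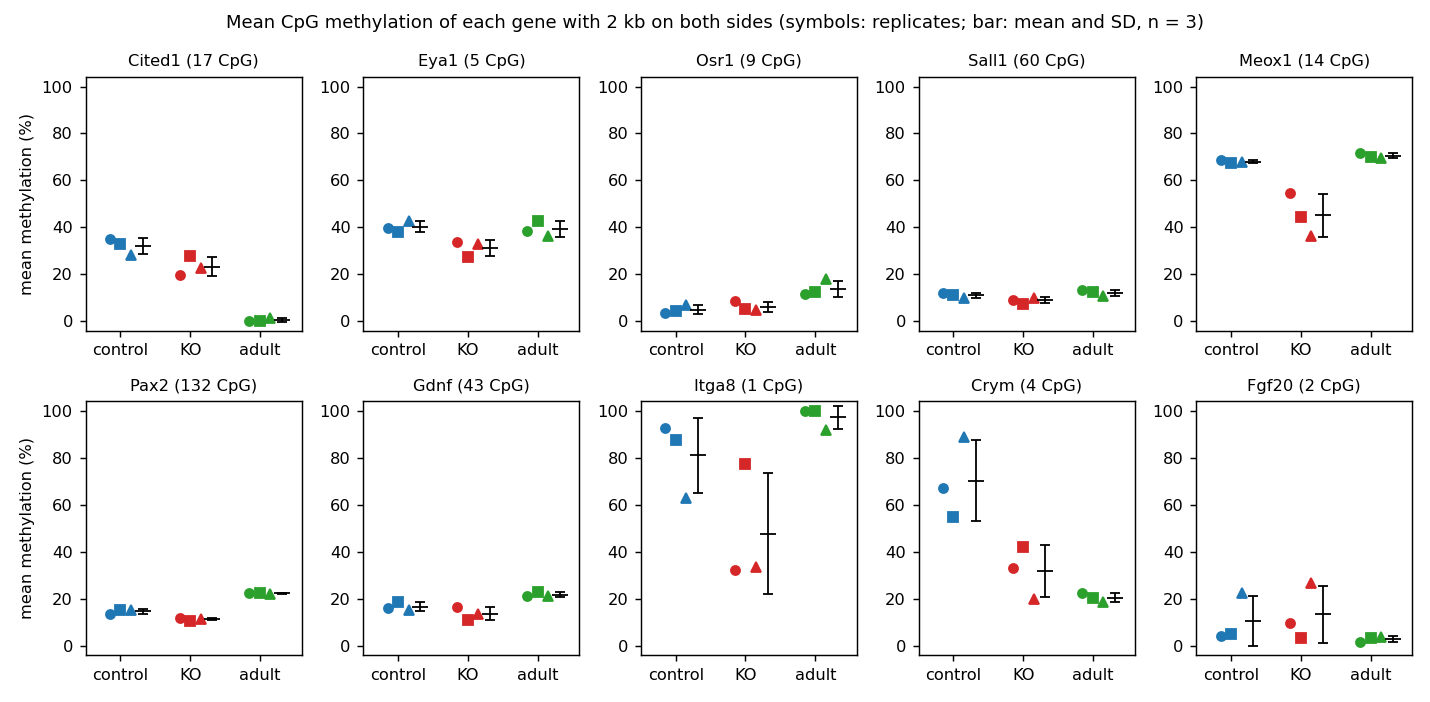
Mean CpG methylation in percent (vertical axis, 0 to 100) of each gene with 2 kb on both sides, in 3 controls (blue), 3 KO samples (red) and 3 adults (green), with mean and SD. Meox1 and Crym lie lower in KO, Cited1 is near 0 in adults, and Pax2 and Osr1 lie higher in adults than in controls.

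Gene regions with at least 3 positions were tested with a quasi-binomial model on their summed calls, and 8 of the 10 genes had enough. Cited1, Sall1, Meox1 and Crym were lower in KO (4 of 8), where 58.5% of the 22704 gene regions tested were lower, so this share is near the background. Without KO 3, the KO sample with the fewest calls, 2 regions were called lower. Of all regions 0.106% were called higher in KO. None of the 8 was, and none was higher at an unadjusted p under 0.05, while 5 were lower at that level. All KO samples lay below all controls in 5 of the 8 regions, against 68.0% of all regions. Itga8, with 1 position, and Fgf20, with 2, were not tested.

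Meox1 had the highest methylation among the regulators. Its 14 positions averaged 68.5%, 67.6% and 68.0% in controls, 54.6%, 44.4% and 36.2% in KO and 71.6%, 70.1% and 69.6% in adults. The controls and adults were tight, and the KO samples lay apart from both and from each other. The KO difference was -22.9 points (quasi-binomial adjusted p 0.000748), while the 1893 regions within 5 points of its control level had a median of -18.3 points and 17.3% of them lost more. Of its 14 positions 7 were called lower in KO. All 7 were among its 11 positions of 50% or more, and 62.0% of all measured positions of that level were called lower. The largest decrease was at 101880567, from 90.5%, 69.0% and 72.4% to 29.4%, 28.6% and 35.7%.

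Crym was measured at 4 positions inside the gene, between 120190495 and 120190604. They averaged 67.2%, 54.8% and 88.8% in controls, 33.0%, 41.9% and 19.9% in KO and 22.4%, 20.2% and 18.5% in adults. Controls were high and variable, and every KO sample and every adult lay below them. KO 3 lay within the range of the adults, so those groups overlapped. The difference was -38.7 points in KO (quasi-binomial adjusted p 0.0214) and -49.9 points in adults (adjusted p 0.00107). In KO, 0.370% of gene regions lost more, and in adults 0.0132%. Position 120190604 had the largest decrease in KO, from 69.0%, 69.0% and 100% to 32%, 24.1% and 36.8%, and 120190515 in adults, from 91.7%, 71.4% and 92% to 20%, 20.5% and 28.1%. Calls per sample over the 4 positions ranged from 60 to 245. The KO call was lost without control 3 (quasi-binomial adjusted p 0.0590) or without KO 3 (0.0599). With at least 5 calls, 10 positions were measured, at 22.3% to 37.0% in controls, 13.8% to 17.9% in KO and 7.78% to 9.73% in adults. The KO difference was then only -14.7 points and did not pass the test (quasi-binomial adjusted p 0.203), while the adult difference of -22.05 points did (0.00286).

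At Cited1, the 17 positions averaged 34.8%, 32.7% and 28.2% in controls, 19.5%, 27.7% and 22.6% in KO and 0%, 0% and 1.35% in adults. KO samples were below controls and adults were almost free of methylation. The region was lower in KO by 8.64 points (quasi-binomial adjusted p 0.0313) and in adults by 31.5 points (adjusted p 1.73e-06). In KO, the 1921 regions within 5 points of its control level had a median of -8.24 points, and 43.9% of them lost more. None of its 17 positions was called lower in KO. Of the 17, 15 were at 10% to 50% in controls, a level at which 9.15% of all measured positions were called lower. The KO call was lost when control 1 (0.0611), control 2 (0.109), KO 1 (0.118) or KO 3 (0.0713) was left out, and with at least 20 calls (0.0720), whereas the adult call held in each alternative. The 9 positions within 500 bases of an annotated start were at 35.6%, 34.4% and 37.8% in controls, 24.3%, 21.7% and 19.1% in KO and 0%, 0% and 0.794% in adults. In these start windows KO and adults each gave the smallest possible value against control (exact permutation p 0.1). Cited1 RNA was also lower in KO, but it was measured in separately labelled samples and a relation was not tested. At the other 8 positions KO and control overlapped. The largest adult decrease was at 102250111, which was 100%, 47.1% and 28% in controls and 0% in all 3 adults, on 13 to 17 calls per adult.

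Cited1 is X-linked, and the share of calls on chromosome X was 2.35% to 2.37% in controls, 2.06% to 2.44% in KO and 1.35% to 1.40% in adults. The share on Y was 0.01945% to 0.0267%, 0.01965% to 0.0234% and 0.09535% to 0.124%. The labels give no sex, and the age, sex and wild-type genotype of the adults cannot be told apart here. On chromosome X, 55.4% of 592 gene regions were lower in adults, against 18.8% of all regions, with a median difference of -13.3 points.

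Sall1 and Pax2 were the members with most positions, 60 and 132, and most of these were unmethylated. In the start windows, Sall1 (26 positions) had 0.424% to 2.59% in controls, 0.769% to 0.808% in KO and 0.189% to 0.413% in adults. Pax2 (31 positions) had 0.915% to 1.24%, 0.850% to 1.19% and 0.873% to 1.92%. Over the positions inside the promoters printed above, no sample mean exceeded 2.08% for Sall1 start 2, 1.36% for Pax2 start 2 and 1.83% for Pax2 start 3. Gdnf (3 positions) was at 0% in all 9 samples, on 36 to 294 calls per sample. With at least 5 calls, the sample means over 10 positions in the Itga8 start window were 0% to 4%.

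Outside its start windows Sall1 had 34 positions, at 18.8%, 19.2% and 17.1% in controls and 15.6%, 12.5% and 17.0% in KO. The region was called lower in KO (-2.13 points, quasi-binomial adjusted p 0.00341), although KO 3 overlapped the controls when every position weighed the same. Without the flanks of 2 kb the call was lost (quasi-binomial adjusted p 0.0560). All 5 called losses lay in 2 short runs of positions, the first beyond the lower end of the gene and the second 3.37 kb inside it. Of these, 89025450 to 89025483 went from 49.4% ± 6.62 to 33.5% ± 8.79 and 89030610 to 89030630 from 89.1% ± 5.67 to 63.2% ± 10.97. Position 89030610 was 94.3%, 92.5% and 100% in controls, 90.0%, 59.1% and 20% in KO and 63.3%, 97.5% and 0% in adults, so single adults differed by almost the whole scale.

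Pax2 as a whole did not pass in KO, with 13.5%, 14.97% and 15.3% in controls and 11.6%, 10.6% and 11.3% in KO (quasi-binomial adjusted p 0.281 on summed calls). Every KO sample was nonetheless below every control, and with at least 5 calls (286 positions) the region was called lower (-2.998 points, quasi-binomial adjusted p 0.00425). At its 17 positions of 50% or more the means were 77.2% ± 5.24 and 58.4% ± 3.54. A run of 8 positions at 44772303 to 44772665 held 5 of its 9 called losses, at 70.1%, 81.7% and 83.3% in controls and 60.2%, 55.2% and 68.2% in KO. The largest single loss was at 44825492, from 56.2%, 32.3% and 44.8% to 1.67%, 3.57% and 12.5%.

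Gdnf did not pass in KO either (16.6% ± 1.76 and 13.6% ± 2.88, quasi-binomial adjusted p 0.112), but it did with at least 20 calls, where 4 positions were left (-20.4 points, 0.00168). Its losses sat in 1 run of 6 positions inside the gene, 7834809 to 7835402, at 88.7%, 87.7% and 89.0% in controls and 67.5%, 59.7% and 68.9% in KO, where 5 positions were called lower. The adults were at 93.6%, 93.6% and 90.6% there. Position 7835402 had the largest decrease, -33.0 points (quasi-binomial adjusted p 0.00112).

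Eya1 was measured at only 5 positions over a gene of much greater length, and averaged 40.2% ± 2.34 in controls and 31.3% ± 3.43 in KO (quasi-binomial adjusted p 0.0707). With at least 5 calls (21 positions) the region was called lower (-8.39 points, quasi-binomial adjusted p 0.0464). Position 14222414 was called lower, from 71.6%, 61.7% and 88.0% to 36.2%, 29.4% and 66.7%, with the groups overlapping. Osr1 had 9 positions, 3.29%, 4.27% and 6.96% in controls and 8.49%, 5.14% and 4.76% in KO, which overlapped. Fgf20, the gene with the largest RNA increase, had 2 positions, at 3.85%, 4.97% and 22.6% in controls and 9.78%, 3.33% and 26.7% in KO. The single position of Itga8 was 92.9%, 87.5% and 63.0% in controls and 32.3%, 77.4% and 33.3% in KO on 12 to 32 calls. With at least 5 calls Itga8 had 15 positions and was called lower in KO (-7.01 points, quasi-binomial adjusted p 0.0196).

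Position by position, 28 of 287 (9.76%) were called lower in KO, where 35.4% of all measured positions were, and without KO 2 it was 13. Among the 48 positions of 50% or more, 25 were called lower, and over all positions of that level 62.0% were. A count of 0 of 287 was called higher by the quasi-binomial model, with 6 higher at an unadjusted p under 0.05, where 0.138% of all positions were called higher. Most of the 287 began under 10%, where a decrease of 10 points is not possible.

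**Figure D4:**
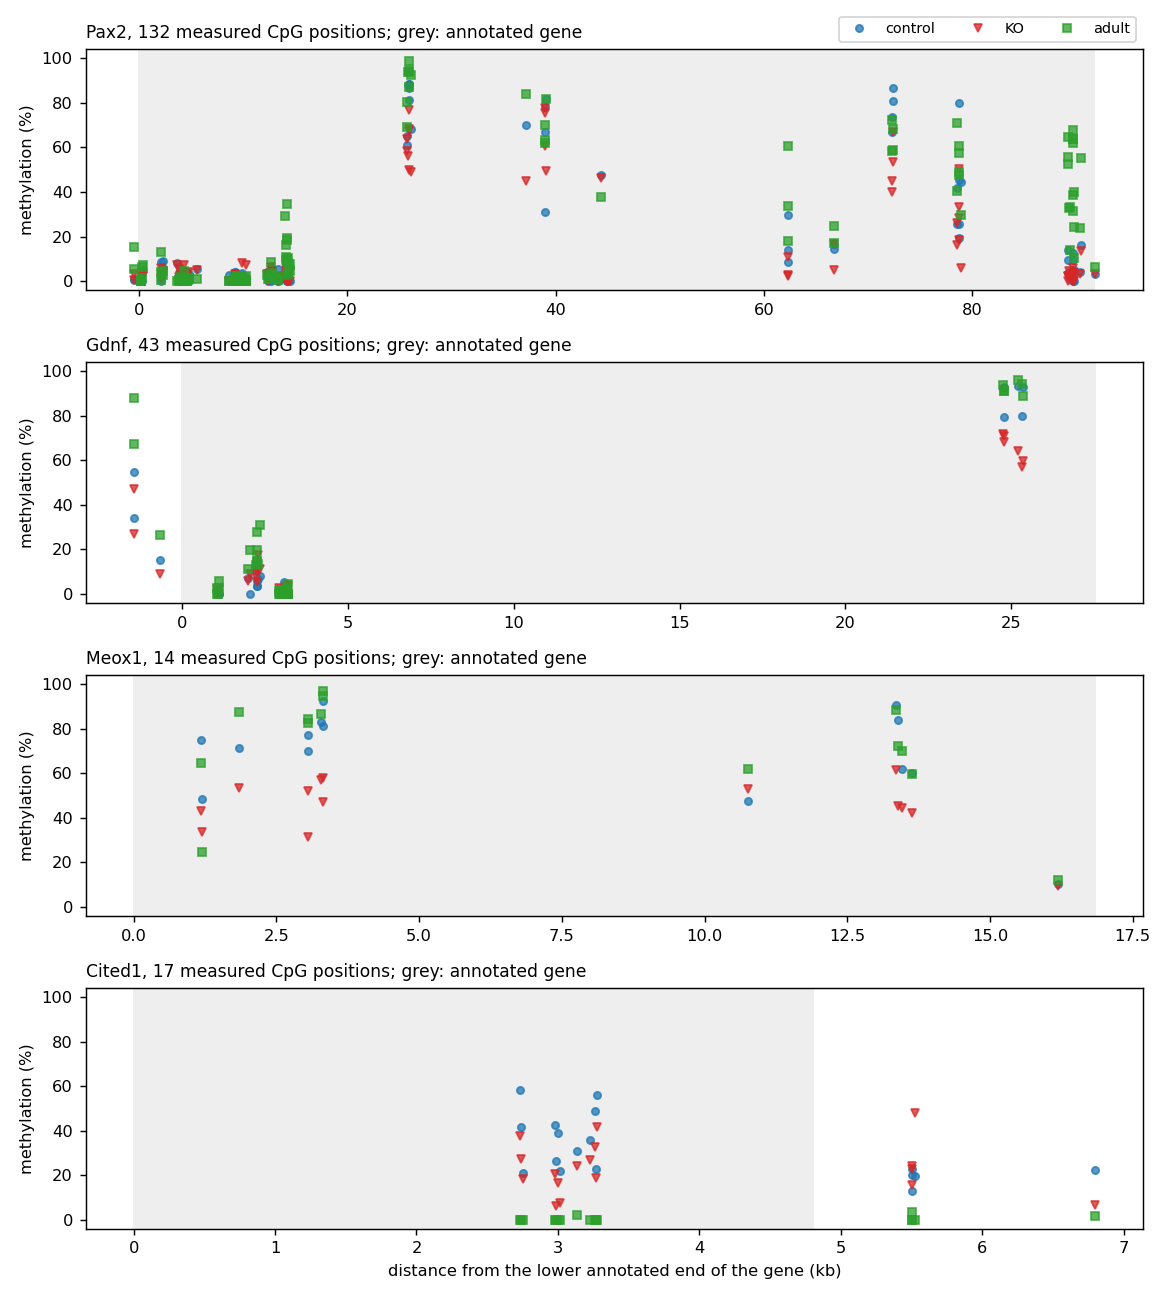
Group mean methylation in percent (vertical axis) of each measured CpG position of Pax2, Gdnf, Meox1 and Cited1 against distance from the lower annotated end of the gene in kb (horizontal axis), for control (blue circles), KO (red triangles) and adult (green squares). The Meox1 positions average 22.9 points lower in KO, and a run of Pax2 positions about 89.2 to 90.4 kb from the lower end is high in adults alone.

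The last comparison set adults of 6 weeks against P0 controls, in methylation only. Over the 287 positions adults were at 21.4%, 21.6% and 20.7%, above all controls by 2.32 points (exact permutation p 0.1, the smallest possible). With each gene weighing the same the difference turned to -4.87 points, as Cited1 and Crym then counted as much as Pax2, and over the 270 autosomal positions it was 4.45 points. Among regions, Osr1 and Pax2 were higher in adults (2 of 8) and Cited1, Crym and Sall1 lower (3 of 8), where 7.06% of all regions were higher and 18.8% lower. Single positions were called higher 28 times and lower 19 times out of 287, against 2.69% and 2.84% of all positions. The 47 calls became 27 without adult 2, 29 without adult 3 and 31 without control 2. Of the 28 gains 22 lay in Pax2, and of the 19 losses 14 lay in Cited1.

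Pax2 as a region was 22.4%, 22.5% and 21.8% in adults against 13.5%, 14.97% and 15.3% in controls. The 3 adults were tight and far above the controls, a gain of 7.61 points (quasi-binomial adjusted p 2.61e-05). Most of it came from a run of 17 positions at 44835820 to 44837014, within the annotated gene and near its 3′ end. That run was at 4.30%, 6.33% and 6.55% in controls, 3.03%, 4.002% and 1.40% in KO and 48.0%, 42.0% and 39.5% in adults, and 15 of its positions were called higher. Both groups at P0 were low there and KO lay under control. Its first positions also lie within the lncRNA gene 1700039E22Rik, which ends at 44835938. Position 44836335 gained most, from 0%, 4% and 0% to 86.7%, 54.8% and 43.8%. A smaller gain lay in the run of 25 positions at 44758918 to 44761094, at 1.90% to 2.72% in controls and 6.17%, 12.6% and 8.71% in adults, with 5 positions called higher.

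The Osr1 region was 11.6%, 12.3% and 17.8% in adults against 3.29%, 4.27% and 6.96% in controls, all adults above (9.05 points, quasi-binomial adjusted p 0.00423). The gain lay in 6 positions inside the gene, 9575509 to 9575812, at 7.00% ± 3.04 in controls, 8.10% ± 3.40 in KO and 20.6% ± 4.75 in adults. Position 9575556 was called higher, from 16.4%, 8.59% and 17.2% to 50%, 37.5% and 44.6%.

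Gdnf was 21.0%, 22.9% and 21.3% in adults, above all controls when each position weighed the same, but its summed calls did not pass (quasi-binomial adjusted p 0.915). Upstream of the gene, 3 positions at 7808581 to 7809367 were at 34.8% ± 5.66 in controls and 60.7% ± 4.09 in adults, and 7808581 itself went from 57.9%, 56.8% and 50% to 90.9%, 88.6% and 84.8%. The Sall1 region was called lower in adults on summed calls (14.6% against 11.5%, quasi-binomial adjusted p 0.0401), while with each position weighing the same it was 1.05 points higher and the groups overlapped. That call was lost without control 1 (0.0802), control 2 (0.191), adult 2 (0.0699) or adult 3 (0.239). Meox1 (adjusted p 0.490) and Eya1 (0.323) did not pass. In Meox1, position 101878708 was called lower in adults, at 40.7%, 59.1% and 45.7% in controls and 17.2%, 30.9% and 25.3% in adults.

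RNA and methylation were measured in separately labelled samples, and with 10 genes no relation between the assays was tested.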

How the data were processed

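Gene counts and methylation calls are the deposited values. The authors' RNA files hold a raw read count per gene and 5 closing lines of unassigned reads, which were left out of library sizes and tests (22.9% to 35.8% of reads). The deposited RRBS files hold, per position, a percent methylated together with its methylated and unmethylated call counts. The submitters' processing notes name Trim Galore, Bismark, STAR 2.4.1d, HTSeq 0.6.1 and the builds mm10 and GRCm38, without roles, and the strand setting of the counting is not given in the sources used here. RRBS used a Diagenode kit, per the labels' protocols.

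The 10 genes and the gene lists were chosen with earlier results of these data known. RNA counts went into edgeR 4.0.16, quasi-likelihood test (R 4.3.3, TMM scaling, its low-count filter, 18132 genes), with Benjamini-Hochberg adjustment at 0.05. On simulated counts for the KO comparison over 18132 genes, 59.0% of 2-fold and 100% of 4-fold changes were recovered, with 12 false calls. Methylation was tested with a quasi-binomial model with moderated dispersion (Python 3.11.15, numpy 2.4.6, scipy 1.17.1) on positions that all 9 samples covered with 10 calls or more. A region passed at an adjusted p under 0.05, and a position needed 10 points of difference besides. The region test sums the calls, while printed region means weigh each position the same. In the simulated KO comparison, 46.6% of 3000 positions lowered by 25 points among 60000 were recovered and 6.80% of calls were false. Group means were compared with two-sided exact permutation tests.

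Runs join measured positions at most 1000 bases apart, a rule set after seeing the data that uses no methylation values. Start windows reach 500 bases to both sides of an annotated start. Named were all 10 genes and Dnmt1, of each pathway list at most 3 called genes in each direction whose mean log2 CPM was not under 0, and in each gene with a called position the one with the largest difference. Of the pathway genes, 1 called gene is not reported here. Genes given beside them for context are Six2, Gfra1, Fgf9, Itgb1, Wnt4, Xist and Ddx3y. Alternatives were DESeq2 1.42.0, limma 3.58.1 (voom with quality weights), DESeq2 size factors in edgeR, stricter and absent count filters, 5 and 20 calls, other weightings, gene bodies alone, a replicate block and each sample left out. Gene ends are from RefSeq GRCm38.p6. Depth limits the precision, and tests cover the spread between samples.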

Additional observations from a re-analysis of the deposited data

How the results depend on the processing

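Under the 12 alternatives for RNA (11 for Fgf20, which was not tested when 10 counts were required in every sample), no log2 fold change of the 10 genes turned direction. Cited1 (-2.89 to -2.12), Itga8 (-0.85 to -0.71) and Fgf20 (2.95 to 4.18) passed in each. Eya1 and Osr1 passed in 7 of 12 each. The count of higher genes went from 3 to 6 with limma voom, and that over all 18132 genes from 1153 to 2442. With single samples left out, the higher count ranged from 1 to 5 and the lower count from 2 to 4. The highest values of both came without control 3, where 2512 of all 18533 genes tested were higher and 2561 lower. DESeq2 and no low-count filter each also passed Meox1 (adjusted p 0.0264 and 0.0414). With a replicate block, Eya1 had an edgeR adjusted p of 0.0791. Same-numbered RNA samples had deviations correlated at -0.272, -0.0895 and -0.140, and RRBS samples near 0, so the numbers were not taken as pairs.

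For methylation, 4 regions were lower in KO, and 2 to 4 when single samples were left out (2 without KO 3). With at least 5 calls it was 6 of 10 (Pax2, Eya1 and Itga8 passed and Crym did not), and with at least 20 calls 3 of 5 (Gdnf passed, Cited1 did not). Cited1 was also lost with the replicate block (0.0537). Positions lower in KO numbered 28, but 47 with at least 5 calls, 12 with at least 20 calls, 13 with the replicate block and 13 to 26 with single samples left out, fewest without KO 2. Regions different in adults went from 5 to 2 with at least 20 calls, where 5 regions were tested, and to 4 or 5 with samples left out. Positions different in adults went from 47 to 13 with at least 20 calls and to 27 to 37 with samples left out, fewest without adult 2. The replicate block gave 0 by the quasi-binomial model with 76 at an unadjusted p under 0.05, a fit that recovered 0% of the changes in the self-test of the KO comparison. The mean KO difference stayed negative in each alternative, at -11.7 points with each gene weighing the same, and the adult difference turned from 2.32 to -4.87 points under that weighting. Otherwise the cause of these shifts was not tested. Coverage limits Itga8, Fgf20, Crym and Eya1, which rest on 1 to 5 positions.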
